A study of Mus musculus with 3 samples.

Results

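The 44 genes described here encode actins, the proteins that nucleate, cut, cap, crosslink and anchor actin filaments, myosin motors, and the large cytolinkers that tie actin to other filaments. They were taken by symbol from a list whose rule names genes and no measured value, though the list was drawn up with earlier results of these data known, and all 44 were found among the 22457 genes of the count tables. The cells were mouse regulatory T cells, the CD4 T cells that restrain other immune cells, obtained as primary cells from adult mice of 4 months and described as coming from haematopoietic cells of bone marrow. PolyA plus RNA-seq was run on 3 libraries, which are technical replicates 1, 2 and 3 of biological replicate 1. There was therefore 1 group, with no treatment and no contrast between conditions, and the spread reported is that between libraries, not between animals.

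Actin monomers assemble into polar filaments, and a T cell rebuilds these filaments continually while it crawls, squeezes through tissue and spreads against an antigen-presenting cell. The Arp2/3 complex starts branches on existing filaments, formins start unbranched ones, and cofilin with its helpers takes filaments apart so that monomers can be used again. Myosin II pulls filaments past one another, while moesin, talin and related linkers attach the filament network to the membrane and to integrins.

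Libraries 1, 2 and 3 held 3206781, 3228215 and 2872350 counts. A level is expressed in CPM, the counts of a gene per 1000000 counts of its library, and, wherever genes are compared with each other, in CPM per kilobase of the longest coding transcript (CPM/kb). All 6 markers of regulatory T cells, Foxp3 among them, reached 1 CPM in every library, and their summed level was 2351, 2260 and 2368 CPM in libraries 1, 2 and 3. Markers of other blood cells were lower and less even: the 7 B cell markers summed to 242, 306 and 396 CPM, 7 erythroid ones to 8.73, 197 and 159 CPM, and 8 neutrophil ones to 1.56, 79.3 and 10.4 CPM. The 4 plasma cell markers summed to 93.9, 199 and 130 CPM, and the 5 of monocytes and macrophages to 44.6, 29.4 and 63.0 CPM. The 4 platelet markers were low, at 2.495, 5.886 and 3.481 CPM. The 10 markers of fibroblasts, smooth muscle and endothelium summed to 6.86, 8.98 and 7.66 CPM, and Des and Kdr had no count. In RNA from a mixed sample, fewer cells of a type and less RNA per cell cannot be told apart. Intervals given below cover counting error only.

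As a set, the 44 listed genes lay well above the typical gene of these cells, though not each of them did. At 1 CPM in every library, 43 of the 44 were detected, against 10866 of all 22457 genes (48.4%), and 41 reached 10 CPM. Their median level was 406.9 CPM, against 18.4 CPM over the 15112 genes with any count. Per coding length the median was 209 CPM/kb, against 14.5 CPM/kb over all genes with a count. The 100 other cytoskeletal genes, 11 of them without a count, had lower medians, 28.1 CPM and 17.4 CPM/kb. The 44 genes held 2.22%, 2.29% and 2.25% of the counts of libraries 1, 2 and 3, a mean of 2.25 ± 0.0385% (SD, n = 3). By CPM, 11 of them stood among the 100 most abundant genes. Per coding length the order was led by Tmsb4x, Pfn1, Coro1a, Arpc2, Msn and Actb, at ranks 2, 9, 21, 57, 73 and 94 of 14847 genes. At the other end, Dst, Myh10, Vcl and Actg1 stood at ranks 14804, 10935, 9663 and 7117. Division by exon length instead moved the level of each gene that reached 1 CPM by more than its spread, and the order of genes with it.

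**Figure D1:**
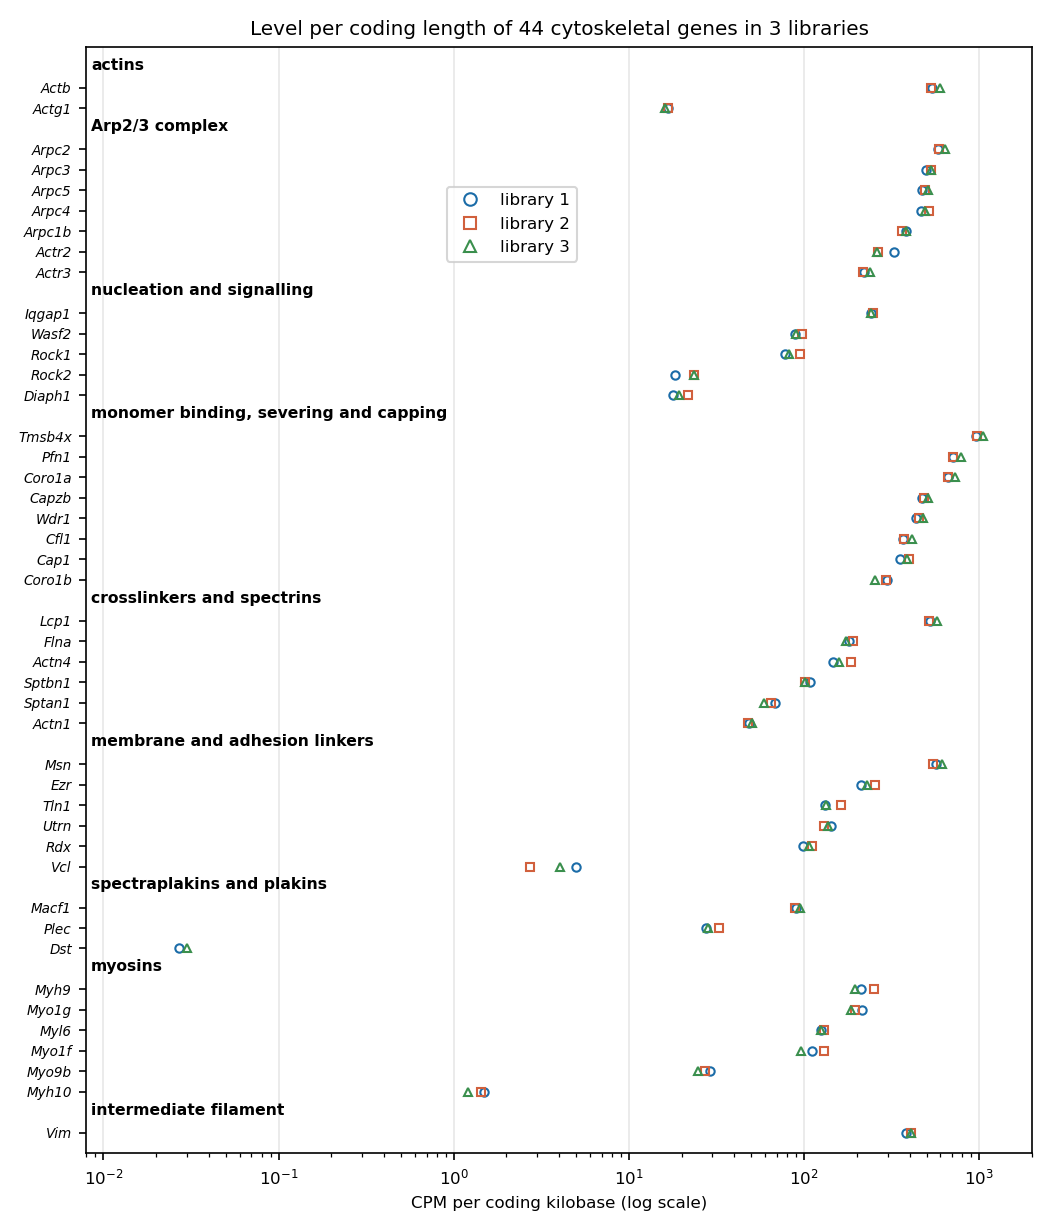
Level of each of the 44 cytoskeletal genes in CPM per coding kilobase (log axis), grouped by role and ordered by mean within a role; each symbol is 1 library, and a library with no count of a gene has no symbol. The 3 libraries nearly coincide for most genes, the highest per coding length being Tmsb4x at 992 CPM/kb, while Dst, Myh10, Vcl and Actg1 stand far below the other genes of their roles.

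Of the cytoplasmic actins, Actb carried almost all of the measured signal. Actb, the gene of cytoplasmic beta-actin (ENSMUSG00000029580.14, GRCm38 chromosome 5, 142903115 to 142906754, minus strand), had 1926, 1930 and 1918 counts in libraries 1, 2 and 3, or 553 ± 35.2 CPM/kb. Actg1, the gene of cytoplasmic gamma-actin (ENSMUSG00000062825.15, chromosome 11, 120345690 to 120348542, minus strand), had 60, 61 and 52 counts, or 16.5 ± 0.368 CPM/kb. The counts of the genes did not approach each other in any library. The log2 ratio of Actb to Actg1 ran from 4.98 to 5.20 with a mean of 5.06 ± 0.12, and the ratio of the summed counts was 33.4 (95% exact binomial interval 28.7 to 39.1).

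The low level of Actg1 cannot be read without the sequence of its relatives. The start of the coding sequence of the cytoplasmic actins, and of a pseudogene of Actg1, is shown because a short read from it can or cannot be placed on 1 gene. Capitals in the lines of Actb and Actg1 mark the bases at which these genes differ from each other, 9 of the first 60 coding bases from the ATG.
Actb: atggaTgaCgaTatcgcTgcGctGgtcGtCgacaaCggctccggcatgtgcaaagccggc
Actg1: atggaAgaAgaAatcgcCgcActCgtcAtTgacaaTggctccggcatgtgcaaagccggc
Gm12715: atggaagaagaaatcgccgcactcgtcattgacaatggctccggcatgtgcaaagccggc
Actb and Actg1 differ at 128 of 1125 coding bases (88.6% identity). Gm12715, on chromosome 4, has 0 mismatches to Actg1 in this stretch. Of the 50-base words of the Actg1 coding sequence, 100% occurred in a transcript of some other gene, against 19.7% of the words of Actb. Genes that share words with Actg1 numbered 22, of which 12 are annotated as pseudogenes. How reads that match several genes were counted is not given in the sources used here, so the part of shared sequence in the low count of Actg1 was not tested.

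The same caution applies to 6 other genes. Over 10% of the 50-base coding words of Myl6 (70.1%), Actr3 (57.6%), Cfl1 (33.2%), Arpc1b (29.8%), Actb (19.7%) and Lcp1 (15.4%) recurred in other genes, while 30 of the 44 genes shared under 1%. When length was counted only in words found in no other gene, Myl6 stood at 423 instead of 126 CPM/kb, Actr3 at 530 instead of 225 CPM/kb and Cfl1 at 575 instead of 384 CPM/kb. These larger values hold only if reads in shared words were not counted. In 20 of the 44 genes exons overlap those of another annotated gene. The longest such overlap, 2090 bases, is between Vcl and Ap3m1 on opposite strands, and since the strand setting of the counting is not given, their reads cannot be told apart there.

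All 7 measured members of the Arp2/3 complex, the nucleator of branched actin, were abundant, between 225 and 601 CPM/kb. Of the subunits that are not actin-related, Arpc2 had 1668, 1704 and 1647 counts (601 ± 32.0 CPM/kb) and Arpc3, Arpc5 and Arpc4 lay close together at 519, 492 and 490 CPM/kb. Arpc2 was the highest of the complex in every library. The actin-related subunits were lower: Actr2, the gene of Arp2, had 1231, 1003 and 881 counts (282 ± 36.8 CPM/kb), and Actr3, the gene of Arp3, had 884, 879 and 857 counts (225 ± 11.3 CPM/kb). Actr3 was below Actr2 in each library, with a log2 ratio of -0.32 ± 0.22, but this order is not firm. By exon length the log2 ratio was -0.07, and with only the coding words found in no other gene it turned to 0.88. Of the alternative subunits outside the list, Arpc5l (185 CPM/kb) and Arpc1a (138 CPM/kb) stood below Arpc5 (492 CPM/kb) and Arpc1b (374 CPM/kb), and Actr3b was at 1.83 CPM/kb.

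Among the genes that start filaments or signal to them, Iqgap1 was the highest and Diaph1 the lowest per coding length. Per exon length Rock2 was below Diaph1, at 6.79 against 11.7 CPM/kb. Iqgap1, a scaffold that binds Cdc42 and Rac, had 3859, 3977 and 3425 counts (243 ± 4.11 CPM/kb), and its level varied little between libraries. Wasf2, the WAVE protein that switches on Arp2/3 downstream of Rac, averaged 91.8 ± 4.92 CPM/kb. Diaph1, a formin, had 216, 267 and 210 counts (19.6 ± 2.05 CPM/kb). The kinases Rock1 and Rock2, which raise myosin activity, differed from each other. Rock1 had 1014, 1248 and 958 counts (85.0 ± 9.03 CPM/kb) and Rock2 had 254, 329 and 293 counts (21.8 ± 3.03 CPM/kb). Their log2 ratio was 2.09, 2.02 and 1.80 in libraries 1, 2 and 3, and the summed counts gave Rock1 3.92 times the level of Rock2 (interval 3.64 to 4.23).

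The genes for monomer supply and filament turnover had a median of 471 CPM/kb, beside 490 CPM/kb for the Arp2/3 complex, and none was below 281 CPM/kb. Tmsb4x, the gene of thymosin beta 4, which holds actin monomers in reserve, had 463, 467 and 452 counts on a coding sequence of 150 bases (992 ± 49.4 CPM/kb). Pfn1, the profilin that feeds monomers to growing ends, had 955, 958 and 953 counts (735 ± 47.4 CPM/kb). Per exon length, which counts the untranslated parts too, Tmsb4x stood at 109 CPM/kb, so its first place rests on the short coding sequence. Coro1a (340), Arpc2 (266), Actb (232), Msn (157), Pfn1 (128) and further members were then above it. Counts of Tmsb4x and Pfn1 were nearly the same in all 3 libraries although the totals were not. Cfl1 (cofilin), Wdr1, which helps cofilin to take filaments apart, Cap1, which recycles monomers, and Capzb, a subunit of the barbed-end cap, averaged between 379 and 487 CPM/kb. Coro1a, the coronin typical of haematopoietic cells, had 2926, 2948 and 2903 counts (684 ± 40.9 CPM/kb). Coro1b, its broadly expressed relative, had 1378, 1372 and 1061 counts (281 ± 23.1 CPM/kb) and shares 432 exonic bases on the same strand with Ptprcap. Coro1a was above Coro1b in each library, by 1.28 ± 0.21 on the log2 scale.

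Among the crosslinkers, Lcp1, the leukocyte plastin that bundles filaments, was the highest per coding length, with 3162, 3146 and 3104 counts (539 ± 31 CPM/kb). Flna, filamin A, which joins filaments into networks and binds integrins, averaged 181 ± 8.33 CPM/kb, but was above Lcp1 per exon length, at 153 against 107 CPM/kb. The other plastins, Pls3 and Pls1, lay far below Lcp1 and averaged 3.30 and 0.957 CPM/kb. The alpha-actinins that are not specific to muscle were unequal. Actn4 had 1316, 1683 and 1264 counts (164 ± 20.5 CPM/kb) and Actn1 had 416, 416 and 389 counts (49.1 ± 1.33 CPM/kb), so that Actn4 was 3.34 times higher over the summed counts (interval 3.13 to 3.56). The spectrins, long flexible proteins that lie under the membrane as alpha-beta pairs, lay between Actn1 and Actn4. Sptan1 (alpha) had 1638, 1568 and 1266 counts (63.9 ± 4.74 CPM/kb) and Sptbn1 (beta) had 2461, 2323 and 2073 counts (104 ± 3.81 CPM/kb). Sptan1 was below Sptbn1 in every library, by -0.70 ± 0.08 on the log2 scale per coding length and by -0.23 per exon length.

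The ERM proteins, which fix actin to the plasma membrane, followed a fixed order in all 3 libraries, with moesin first, ezrin next and radixin last. Msn had 3133, 3061 and 3028 counts (574 ± 31.7 CPM/kb), Ezr had 1194, 1433 and 1152 counts (231 ± 20.5 CPM/kb) and Rdx had 554, 626 and 538 counts (106 ± 6.19 CPM/kb). The log2 ratio of Msn to Ezr was 1.32 ± 0.17, that of Msn to Rdx 2.44 ± 0.12 and that of Ezr to Rdx 1.13 ± 0.05. Per exon length the order was the same, with Msn over Ezr at 0.35. Tln1, talin, which links integrins to actin and activates them, had 3210, 3993 and 2917 counts (142 ± 17.3 CPM/kb). Vcl, vinculin, which strengthens the talin link at adhesions, had only 51, 28 and 37 counts (3.90 ± 1.14 CPM/kb). Vcl was the lowest of the 6 linkers of the list in each library, and the log2 ratio of Tln1 to Vcl was 4.72, 5.90 and 5.05, with a mean of 5.22 per coding length and 6.22 per exon length. Utrn, utrophin, which anchors actin to dystroglycan, had 4695, 4295 and 4032 counts (136 ± 6.5 CPM/kb), while its relative Dmd outside the list averaged 0.391 CPM/kb. Fermt3, the kindlin of blood cells, which works on integrins beside talin, averaged 342 CPM/kb.

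Of the giant cytolinkers, Macf1 was the most abundant of the 44 genes by CPM and Dst the least. Macf1 encodes a spectraplakin that binds both actin and microtubules, on a longest coding sequence of 22065 bases (ENSMUSG00000028649.18, chromosome 4, 123349633 to 123684360, minus strand), and had 6357, 6325 and 5991 counts (2009 CPM, 91.1 ± 3.05 CPM/kb). Dst encodes the other spectraplakin on 23151 coding bases (ENSMUSG00000026131.18, chromosome 1, 33908225 to 34308661, plus strand) and had 2, 0 and 2 counts. Dst thus lay below 3 counts in every library, the floor of 0.936, 0.929 and 1.04 CPM for libraries 1, 2 and 3. Over the summed 18673 and 4 counts, Macf1 was 4898 times higher than Dst per coding length, with an interval of 1913 to 17978. Plec, plectin, which ties intermediate filaments to actin, had 1250, 1492 and 1150 counts (29.7 ± 2.78 CPM/kb), below Macf1 by a log2 ratio of Macf1 to Plec of 1.62 ± 0.16. For genes this long the longest coding transcript need not be the one expressed, which would move the level per length but not the counts.

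**Figure D2:**
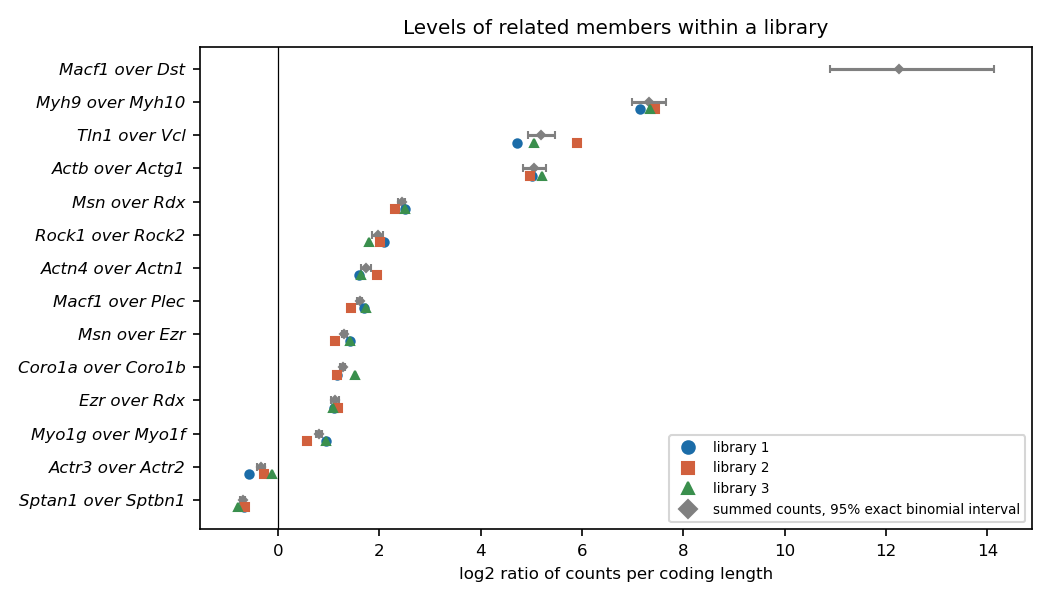
log2 ratio of counts per coding length for 14 pairs of related cytoskeletal genes; coloured symbols are the libraries and grey diamonds with bars are the summed counts with the 95% exact binomial interval. Macf1 over Dst, drawn from summed counts only because Dst had no count in library 2, is the widest gap, Myh9 over Myh10 follows at 7.31, and Actr3 over Actr2 and Sptan1 over Sptbn1 lie below 0.

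Of the conventional myosins, Myh9 was nearly alone. Myh9, the heavy chain of non-muscle myosin IIA (ENSMUSG00000022443.17, chromosome 15, 77760587 to 77842175, minus strand), had 4010, 4756 and 3313 counts (220 ± 27.9 CPM/kb). Myh10, the heavy chain of myosin IIB, had 29, 28 and 21 counts (1.38 ± 0.151 CPM/kb), and Myh14, that of myosin IIC and no member of the list, had no count. Myh9 was 159 times higher than Myh10 over the summed counts (interval 127 to 201). Of the light chains, Myl6, an essential chain, had 189, 199 and 170 counts (126 ± 3.16 CPM/kb) under the limit on shared words given above. The regulatory chains Myl12b and Myl12a, outside the list, averaged 366 and 340 CPM/kb. Of the coding words of Myl12a, 91.0% were shared with other genes. The annotation holds another gene entry named Myl12b, and the shared words of the counted entry were not measured. The class I myosins, single-headed motors that bind membranes, were led by Myo1g, which is found mainly in blood cells, with 2106, 1925 and 1638 counts (198 ± 14.4 CPM/kb). Myo1f, another class I myosin of immune cells, had 1168, 1381 and 907 counts (112 ± 17.1 CPM/kb). Myo1g exceeded Myo1f by 0.83 ± 0.22 on the log2 scale per coding length, and by 0.24 per exon length. Myo9b, a class IX myosin, averaged 26.9 ± 2.15 CPM/kb.

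Vim, vimentin, was the 1 intermediate filament of the list, with 1721, 1847 and 1634 counts (400 ± 14.0 CPM/kb). The other intermediate filament genes measured were far below it, the highest being Lmnb1 at 8.32 CPM/kb. Of the tissue actins, Actg2, the enteric smooth muscle actin, had 193, 202 and 178 counts (54.6 CPM/kb), above Actg1 in every library, while Acta2, Acta1 and Actc1 averaged 1.51, 0.377 and 0.183 CPM/kb. Actg2 shared 0 of its 50-base coding words with other genes. The summed level of the smooth muscle and stromal markers is given above, and the source of the Actg2 counts was not tested.

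The libraries were then compared to see whether counts of the cytoskeletal genes varied more than counting error allows. A chi-square test against Poisson expectation, adjusted by Benjamini-Hochberg over all 10282 genes with a mean count of at least 10, passed for 24 of the 43 cytoskeletal genes tested (55.8%), against 27.6% of all genes tested. The cytoskeletal genes had more counts, a median mean count of 1270 against 151 over all genes tested, and with more counts a smaller difference passes. The differences were small, with a median ratio of the highest library to the lowest of 1.15 among those that passed. Over all genes that passed it was 1.39, but genes with fewer counts pass only at larger ratios, so these medians are not comparable. Of the 24 genes none reached 1.5-fold, against 1026 of the 2836 genes that passed, under the same limit. The negative binomial test with edgeR's common dispersion allows a spread shared by all genes, here a coefficient of variation of 12.5%. With it 0 of the 43 passed, against 0.904% of all genes. That dispersion was estimated from the same 3 libraries. Differences as small as those of the 24 genes could hardly pass it, so the 0 is no independent check. At an unadjusted p under 0.05, 0 of the 43 cytoskeletal genes passed the negative binomial model, against 689 of all 10282 genes. At the same level 28 of the 43 passed the chi-square test, against 3971 of the 10282.

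**Figure D3:**
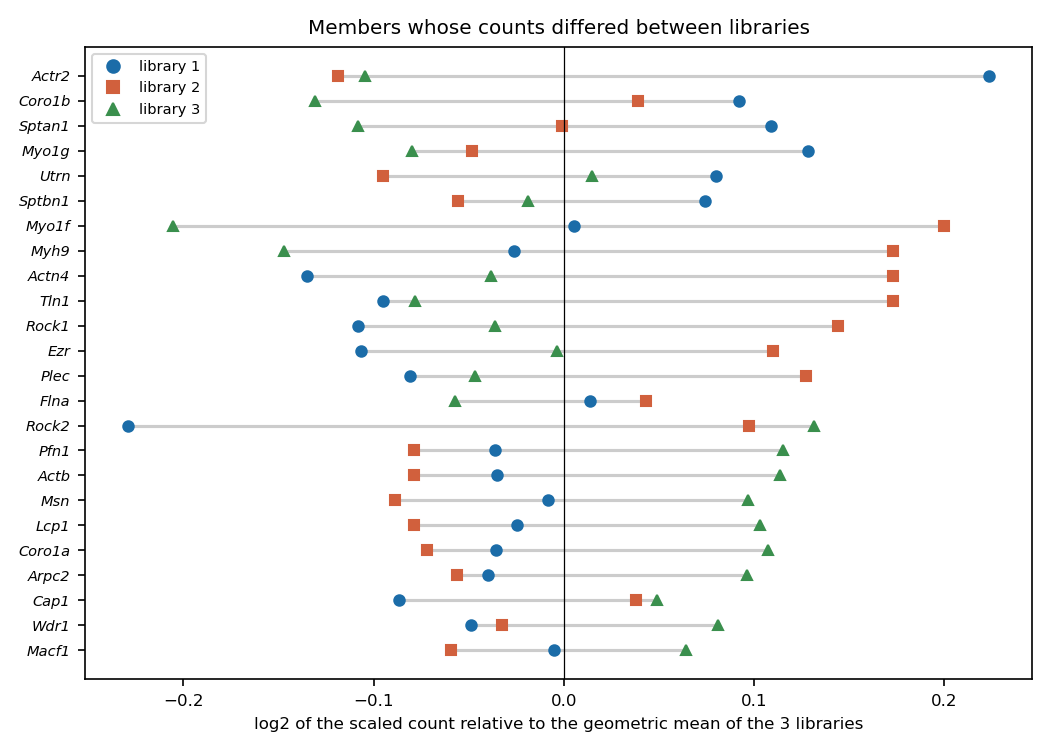
log2 of the TMM-scaled count relative to the geometric mean of the 3 libraries, for the 24 cytoskeletal genes that passed the chi-square test; symbols are libraries and the grey line joins the lowest and highest. Library 1 is the highest for 6 genes, library 2 for 8 and library 3 for 10, and the widest span, that of Myo1f, is a ratio of 1.32. The same split over all genes that passed was not counted, so it cannot be called particular to these genes.

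Library 2 was the highest for 8 genes, with a class I myosin and the heavy chain of myosin IIA in front. Myo1f gave a ratio of library 2 to library 3 of 1.32 (interval 1.22 to 1.44, adjusted p = 1.41e-08 by the chi-square test). Myh9 gave a ratio of 1.249 (interval 1.19 to 1.31, adjusted p = 1.2e-20 by the chi-square test). For both genes library 1 lay between the others, and the call held under each alternative except the negative binomial model. Actn4, Tln1, Rock1, Ezr, Plec and Flna were also highest in library 2, at ratios of 1.24, 1.204, 1.19, 1.16, 1.16 and 1.07. Without library 2, each of these 6 fell short of the threshold, with adjusted p values between 0.142 and 0.843 by the chi-square test. Ezr also fell short without library 1, and Flna without library 3. Library 2 was also the library with the highest erythroid, neutrophil, plasma cell and platelet marker sums (197, 79.3, 199 and 5.886 CPM). Their part in these differences was not tested.

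Library 1 was the highest for 6 genes. Actr2 stood out, at 1.27 times library 2 (interval 1.17 to 1.38, adjusted p = 6.39e-08 by the chi-square test), while libraries 2 and 3 were close. Coro1b, Sptan1, Myo1g, Utrn and Sptbn1 gave ratios of 1.17, 1.16, 1.16, 1.13 and 1.09. Without library 1, Actr2, Myo1g, Sptan1 and Sptbn1 no longer passed, with adjusted p values of 0.922, 0.727, 0.17 and 0.627 by the chi-square test. Coro1b and Sptan1 did not pass without library 3, nor Utrn and Sptbn1 without library 2. Sptbn1 was also lost with plain totals and with DESeq2 size factors.

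Of the 10 genes highest in library 3, 9 showed ratios between 1.09 and 1.14, namely Actb, Arpc2, Cap1, Coro1a, Lcp1, Macf1, Msn, Pfn1 and Wdr1. The other, Rock2, was at 1.28 times library 1 (interval 1.08 to 1.52, adjusted p = 0.026 by the chi-square test), where libraries 2 and 3 were level with each other. Without library 3 none of the 9 passed, and without library 1 Rock2 did not. Arpc2, Cap1, Macf1 and Pfn1 also fell short without library 2, and Pfn1 with plain totals. Cap1 was the least firm: with plain totals it was highest in library 2. Without library 1 its adjusted p was 0.919 by the chi-square test. Library 3 also had the highest summed levels of B cell markers (396 CPM) and of monocyte and macrophage markers (63.0 CPM). Their part in these differences was not tested. The raw counts of most of the 9 hardly differed, as for Actb with 1926, 1930 and 1918, while the total of library 3 was smaller by a log2 ratio to library 1 of -0.16. All of the 9 except Macf1, at 0.282 counts per base of coding sequence, also had at least 1.17 counts per base.

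The number of counts per coding base, averaged over libraries, differed widely among the genes. At 1.6 or more stood 8 of the 44 genes, Tmsb4x (3.07), Pfn1 (2.27), Coro1a (2.12), Arpc2 (1.86), Msn (1.78), Actb (1.71), Lcp1 (1.67) and Arpc3 (1.61). Among genes with a mean count of at least 100, which leaves out Actg1, Vcl, Myh10 and Dst, the ratio of the libraries was then set against this density. In the 8 dense genes the unscaled log2 ratio of library 3 to library 1 had a median of -0.02 and ran from -0.06 to -0.003, and the 109 other genes of that density had a median of -0.04. Between 1 and 1.6 counts per base the median was close to this, at -0.04 for 8 cytoskeletal genes and -0.06 for 282 other genes. Between 0.5 and 1 counts per base the median was -0.23 for 9 cytoskeletal genes and -0.11 for 878 other genes. Between 0.2 and 0.5 counts per base it was -0.14 for 9 cytoskeletal genes and -0.17 for 2021 others. Under 0.2 counts per base it was -0.11 for 6 cytoskeletal genes and -0.20 for 2938 others. The medians of the other genes thus rose steadily with density, while those of the cytoskeletal genes did not. Of the 8 dense genes, 6 passed the chi-square test, against 45.9% of the other genes of that density. All 6 were highest in library 3, and the highest library of the other passing genes of that density was not counted. When library sizes were fitted within classes of counts per coding base, an alternative chosen after the data were seen, 17 of 43 cytoskeletal genes passed (39.5%), against 25.0% of all genes, and those highest in library 3 numbered 3. Actb, Arpc2, Cap1, Coro1a, Lcp1, Msn, Pfn1 and Wdr1 then no longer passed, with adjusted p values from 0.306 to 0.932 by the chi-square test, nor did Ezr at 0.137, while Actr3 and Arpc1b passed. What the density does to the levels of these genes, and so to the ratios of Actb, Coro1a and Msn to their relatives, was not tested.

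**Figure D4:**
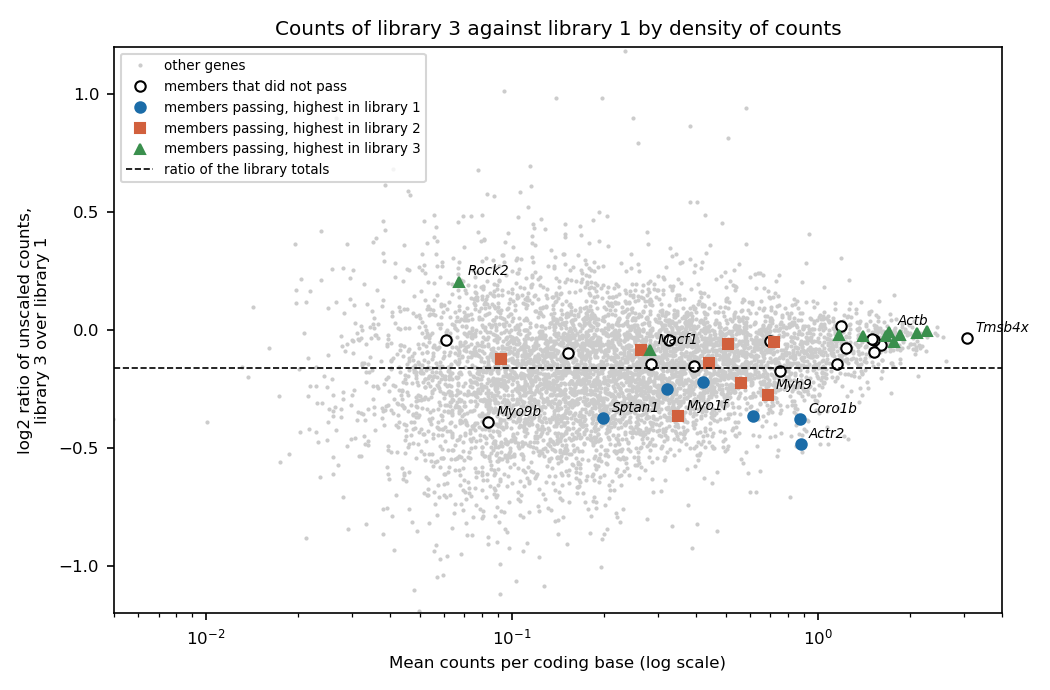
log2 ratio of unscaled counts of library 3 over library 1 against mean counts per coding base (log axis) for genes with a mean count of at least 100; grey dots are other genes, open circles cytoskeletal genes that did not pass the chi-square test and filled symbols those that passed, by their highest library, and dots beyond the vertical range are not drawn. The 8 cytoskeletal genes at 1.6 or more counts per base lie near 0, where the counts of the libraries are equal, and above the dashed line, the ratio of the totals at -0.16.

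Many cytoskeletal genes are known targets of serum response factor, which binds the CArG box and responds to the pool of free actin monomers. The box was searched in promoter windows of RefSeq (GRCm38.p6), from 250 bases before to 50 after each start. The motif is its own reverse complement in form, so 1 strand covers both. It occurred in 4 of the 39 cytoskeletal genes with a window (10.3%), against 488 of 27025 genes with one (1.81%). Actb, Diaph1, Rock1, Coro1b and Plec had no window and were not searched. The 4 boxes are shown in capitals, on the strand of the gene, with up to 10 bases on either side, because they let the level of each gene be set beside its promoter.
Actg1, chr11:120348566-120348595, minus strand: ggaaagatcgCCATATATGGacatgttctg
Arpc4, chr6:113377863-113377882, plus strand: CCTAATTTGGtgcccaacct
Myl6, chr10:128493040-128493069, minus strand: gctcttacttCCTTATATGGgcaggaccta
Vcl, chr14:20929161-20929190, plus strand: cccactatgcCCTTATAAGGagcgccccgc
The first base of the box lies at -90, -250, -50 and -227 from the start site in the order given. The levels of these genes spread widely, from 3.90 CPM/kb for Vcl and 16.5 for Actg1 to 126 for Myl6 and 490 CPM/kb for Arpc4. A match of letters is no evidence of binding, and no binding was measured here.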

How the data were processed

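The deposited values are whole-number counts per gene, 1 table per library, which the authors made on mm10 with GENCODE M4, per the file descriptions deposited with the libraries. Aligner, counting program, strand setting and duplicate removal: not given in the sources used here. Names, coordinates and coding lengths came from GENCODE M21 on the same assembly, which matched 22195 of 22457 identifiers; coding length is that of the longest coding transcript. Libraries were grouped by the labelled cell type. TMM factors (0.990, 1.02 and 0.993) came from edgeR 4.0.16 in R 4.3.3. Each gene with a mean count of at least 10 was tested by Pearson's chi-square against Poisson expectation over the 3 libraries (2 degrees of freedom), adjusted by Benjamini-Hochberg at 0.05. Ratios of related genes carry 95% exact binomial intervals of summed counts; with 3 libraries the smallest p of a sign test is 0.25, so none is given.

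All 44 members were to be named, with each library's values for the genes of 14 pairs, the highest and lowest of each role and the 10 with the largest ratios among those that passed; of 100 other cytoskeletal genes, the 3 highest of a class at most and relatives of members. Some genes of the wider list are not reported here. The members and lists were chosen with earlier results of these data known. Library sizes within classes of density or of GC content, and coding words found in no other gene, were added after the data were seen. One alternative used DESeq2 1.42.0 size factors, others plain totals, other filters and thresholds, exon length and each library left out. The software was Python 3.11.15 with scipy 1.17.1, numpy 2.4.6 and pandas 2.3.3, and figures were drawn in matplotlib 3.10.9.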

Additional observations from a re-analysis of the deposited data

How the results depend on the processing

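The chi-square test passed 24 cytoskeletal genes and the negative binomial model 0. Among the 18 with at most 0.5 counts per coding base 9 passed (25.5% of all such genes), and these 9 are among the 24. Leaving out 1 library gave 17 genes without library 1 (16.5% of all genes), 12 without library 2 (9.40%) and 13 without library 3 (19.5%). Other scalings, filters and thresholds gave 17 to 24. The share of all genes ran from 16.5% at an adjusted p threshold of 0.01 to 33.2% at a mean count of at least 50. Library sizes within classes of coding GC content gave 21 of 43, against 25.3% of all genes. There Macf1, Plec, Arpc2, Rock2 and Sptbn1 no longer passed, with adjusted p values from 0.0787 to 0.638 by the chi-square test. Arpc1b and Cfl1 passed instead. The share of counts held by the 44 genes was 1.55% per coding length. Actr3 over Actr2 (-0.32) was -0.068 by exon length and turned to 0.88 with coding words found in no other gene. Exon length gave Myh9/Myh10 6.97, Myo1g/Myo1f 0.24, Msn/Ezr 0.35, Msn/Rdx 1.98, Ezr/Rdx 1.63, Tln1/Vcl 6.22, Sptan1/Sptbn1 -0.23 and Rock1/Rock2 1.496 (log2). Without division by length Macf1/Plec was 2.27, Tln1/Vcl 6.48 and Sptan1/Sptbn1 -0.62. The other values of these pairs and of the median kept within the SD of the 3 libraries. Leaving out 1 library cannot move a mean of 3 by that SD, so for the pairs this setting was no check. The detection count, which has no spread, was 43 at 1 CPM and 41 at 10 CPM. The cause of these shifts was not tested beyond the lengths themselves. Coding bases that occur once in the genome were not run, since only transcripts were used here. No paired analysis was possible because the labels give 1 group. Depth limits Dst, Myh10, Vcl and Actg1, whose few counts carry wide intervals, and no value speaks of the spread between animals.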

Other observations

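Among 100 other cytoskeletal genes, 77 reached 1 CPM in every library, 62 reached 10 CPM and 11 had no count. The highest of each class included Capg (486 CPM/kb), which caps filaments, of the turnover genes, and Fermt3 (342 CPM/kb) of the adhesion linkers. Brk1 (323 CPM/kb), a small subunit of the WAVE complex, and Evl (314 CPM/kb), an Ena/VASP protein that lengthens filaments, led their classes. The tropomyosins Tpm4 and Tpm3, which coat filaments, averaged 199 and 195 CPM/kb, with 36.1% and 69.9% of their coding words shared with other genes. The chi-square test passed for 26 of the 72 tested (36.1%), against 27.6% of all genes tested, with library 1 the highest for 11, library 2 for 10 and library 3 for 5, and 0 passed the negative binomial model with edgeR's common dispersion.

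The genes that follow were chosen after their values were seen. Was, the haematopoietic activator of Arp2/3, had 131, 260 and 153 counts in libraries 1, 2 and 3, a ratio of 1.92 (interval 1.55 to 2.39). Nckap1l, the haematopoietic WAVE subunit, had 2050, 1463 and 1646 counts, a ratio of 1.45 in the opposite direction, highest in library 1. Myo18a, an unconventional myosin, had 669, 934 and 495 counts and, like Myh9 and Myo1f, was highest in library 2 and lowest in library 3. Of these genes 0 passed the negative binomial model.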
